A study of Drosophila melanogaster with 2 samples.

Results

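The 10 genes of tendon cell differentiation were followed through the binding profile of tx (taxi, also named delilah), a Drosophila regulator of the basic helix-loop-helix class (bHLH). The members are sr, how, shot, Tsp, slow, Lrt, mspo, kon, Tig and vn. They were taken as a list by name, and all 10 were found among the 13945 protein-coding genes of 6 chromosome arms in the Ensembl annotation. Chromatin immunoprecipitation with sequencing (ChIP-seq) was done with an antibody to green fluorescent protein (GFP) on embryos 0 to 24 h old, of both sexes, from a transgenic line in which GFP is fused to the C-terminal end of tx. There was 1 group, tx-GFP embryos, with 2 biological replicates that share 1 control, and embryos without the fusion were not analysed here. Whole embryos were used, so tendon cells were not separated from others, and a site bound in few cells cannot be told apart from a site bound weakly in many. The labels do not say which regulatory DNA drives the fusion.

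Tendon cells of the fly are epidermal cells to which muscles attach. The zinc finger factor stripe, the product of sr, sets their fate, and tx is among the genes that such cells express. Maturation needs a signal from the muscle, the neuregulin-like ligand vein (vn), which acts through the epidermal growth factor receptor (EGFR), and the RNA-binding protein held out wings (how), which controls stripe levels. The mature cell resists muscle pull with the spectraplakin short stop (shot), which links actin and microtubules, and with secreted thrombospondin (Tsp), a ligand of muscle integrin. Slowdown (slow) binds thrombospondin, Lrt is a leucine-rich membrane protein of tendon cells, and M-spondin (mspo) and tiggrin (Tig) are matrix proteins of the attachment site. Kon-tiki (kon) is a transmembrane protein at the muscle tip. Several members, among them vn, kon, mspo and Tig, are thus products of muscle or of the shared matrix rather than of the tendon cell alone.

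The reproducible peaks assigned to members were few, and the 4 in or beside sr, how and vn are shown. Those in or beside shot, Tsp, slow and Lrt are not shown. Each line gives the 101 bases centred on a peak summit, from the plus strand of the Release 6 (dm6) genome of NCBI, 5′ to 3′, with every CANNTG (the E-box, the hexamer that bHLH proteins bind) in capitals. The windows are chr3R:18125233-18125333 in sr, chr3R:22041747-22041847 before the start of how, chr3R:22049252-22049352 in how and chr3L:5824174-5824274 in vn. The first 3 read along the gene, whereas vn lies on the minus strand.
sr intron: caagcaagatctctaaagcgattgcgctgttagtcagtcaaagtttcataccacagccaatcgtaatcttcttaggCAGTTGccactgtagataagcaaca
how upstream: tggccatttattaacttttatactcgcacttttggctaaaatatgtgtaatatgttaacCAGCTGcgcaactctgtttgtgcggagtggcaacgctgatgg
how intron: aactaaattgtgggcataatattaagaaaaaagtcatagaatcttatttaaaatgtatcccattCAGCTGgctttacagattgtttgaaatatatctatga
vn intron: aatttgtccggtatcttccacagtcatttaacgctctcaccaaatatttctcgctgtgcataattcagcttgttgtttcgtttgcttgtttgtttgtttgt
The sr window held 1 E-box, CAGTTG, whose first base was 26 bases to the right of the summit. Both how windows held CAGCTG, beginning 9 bases to the right of the upstream summit and 14 bases to the right of the intronic one. The vn window held none. These 4 windows do not stand for the rest. Of all 12 reproducible summits in the members or within 10 kb of them, 5 held an E-box within 50 bp.

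Peaks came from 4 lists that the authors deposited on dm6. The optimal set, which the irreproducible discovery rate (IDR) delimits, held 3102 peaks and was identical to the top 3102 of the pooled relaxed list. The pooled list and the list of each replicate held 30000 peaks each. A rank counts from 1 at the highest deposited signal within a list, and signals of different lists were not compared by size because the read depth behind them is unknown. A relaxed list includes background by design: 51.1% of all protein-coding genes held a pooled relaxed summit in the gene body, so such a summit alone says little.

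Summits of the optimal set lay in the body of 4 of the 10 members, sr, how, shot and vn, against 9.05% of all protein-coding genes. Members are long, with a median of 27.3 kb against 2.17 kb for all genes, and that background is low for genes of such size. Among genes of like length (within 25% of that of the member), the share with a summit in the body was 36.9% for sr, 34.7% for how, 45.5% for shot and 32.8% for vn. These shares sum over the 10 members to 3.24 genes, against the 4 observed. The 5 summits in the members' bodies likewise stood beside 5.77 from the mean of genes of like length. No test was made, because the list was proposed with results of these data known, and the counts do not set tendon genes apart from other genes of their size.

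With 10 kb either side, 7 members had an optimal IDR summit, where 54.3% of all genes did and genes of like length sum to 6.20. The added members were Tsp, slow and Lrt. Windows held 12 summits in all, 5 in gene bodies and 7 in flanks, and no summit was shared between windows. Only 5 of the 12 had a start site (TSS) of the member as the nearest, 1 at sr, 2 at how and 2 at shot. Of the 7 flank summits, 6 lay within 1000 bp of a TSS of another gene, and the remaining one was the upstream summit of how. Within 1000 bp of their own TSS, how and shot had a summit, 2 of 10 members, against 18.9% of all genes, and the shares of genes of like length sum to 2.67.

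**Figure D1:**
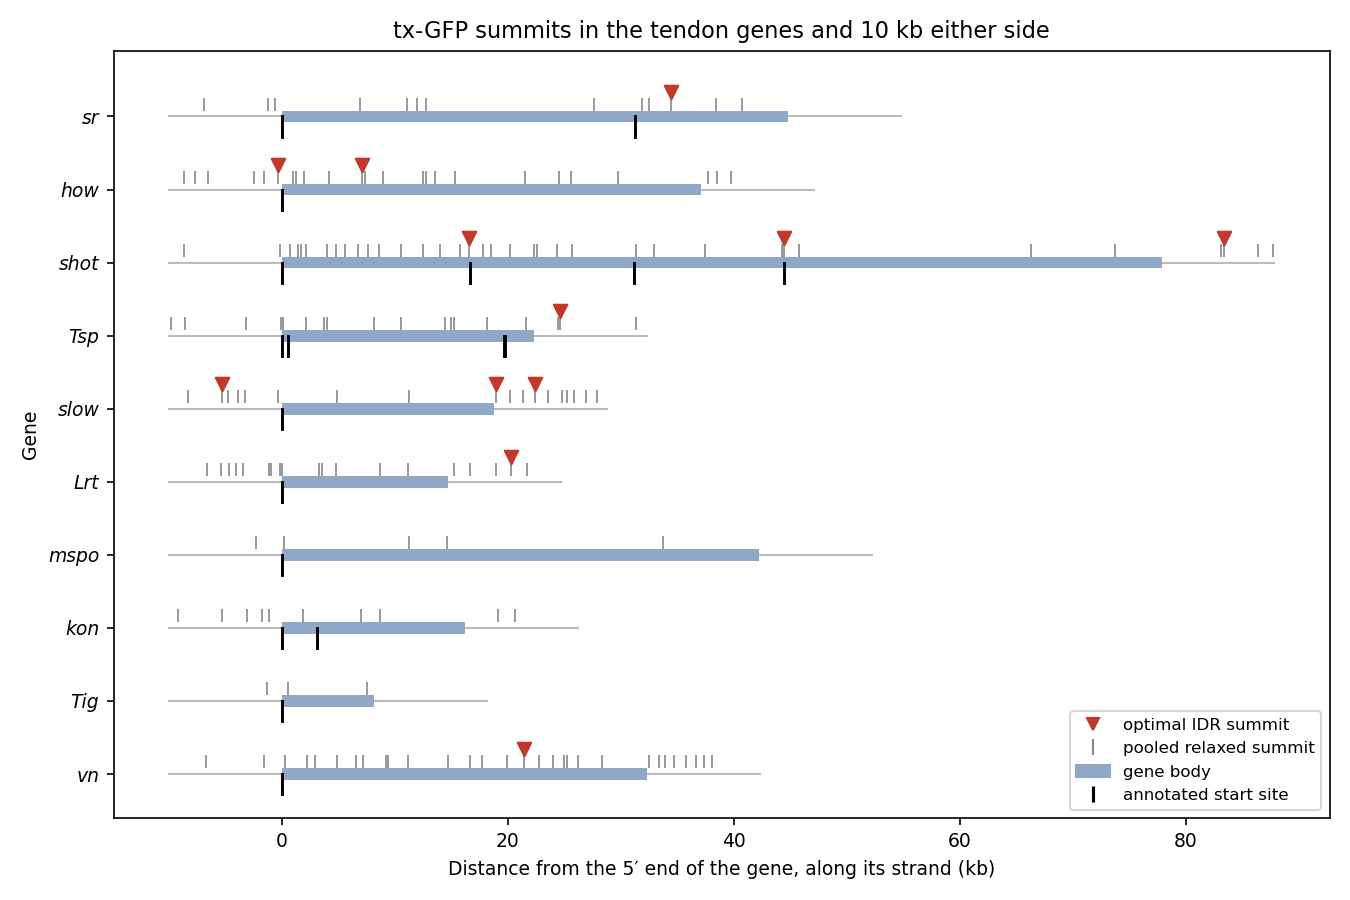
Each row is a gene, drawn along its strand in kb from its 5′ end, with the gene body as a bar, annotated protein-coding start sites as black ticks below, pooled relaxed summits as grey ticks and optimal IDR summits as red triangles. The 5 optimal IDR summits inside bodies lie in sr, how, shot and vn, whereas those of Tsp, slow and Lrt lie outside the gene.

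The gene how (FBgn0264491) carried the strongest summit of all windows. It lies on chromosome 3R from 22042191 to 22079321 on the plus strand, and its 6 protein-coding isoforms share 1 TSS. The upstream peak, from 22041569 to 22041970, ranked 112 of 3102 with a signal of 334, and its summit stood 394 bp upstream of that TSS. It ranked 102 in replicate 1 (signal 241) and 137 in replicate 2 (signal 92.2), so both replicates placed it high. A further peak, from 22049097 to 22049506, ranked 1049 (signal 115). Its summit lay 7111 bp downstream of the TSS, in intron 2 of all 6 isoforms, 5923 bp from the nearest exon edge of the gene. It ranked 1144 in replicate 1 (signal 78.8) and 790 in replicate 2 (signal 40.6), again within the top 3102 of each.

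Around these peaks how held weaker summits, and here the replicates parted. A pooled summit of rank 3514 lay in the same intron, 8959 bp from the TSS, and ranked 2683 in replicate 1 but 17226 in replicate 2. Upstream, a summit of rank 3478 at 2476 bp from the TSS ranked 2150 in replicate 1 and had no replicate 2 summit within 100 bp. The body of how held 15 relaxed summits in replicate 1, against a median of 6 for 366 genes of like length, and 7 in replicate 2, against a median of 8. Thus 20.2% of these genes held at least as many in replicate 1 and 63.4% in replicate 2, and an abundance of weak summits at how was not shared by the replicates.

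The fate gene sr (FBgn0003499) lies on 3R from 18090803 to 18135583 on the plus strand, with 5 isoforms from 2 TSSs. Its one optimal IDR peak, from 18125078 to 18125487, ranked 1463 (signal 94.3). The summit lay 3222 bp downstream of the inner TSS, which serves sr-RB, sr-RC and sr-RE, and was intronic in all 5 isoforms, in intron 1 or 3 depending on the isoform. The nearest exon edge of sr was 1707 bp away. Both replicates held it within their top 3102, at rank 1461 in replicate 1 (signal 68.5) and rank 1784 in replicate 2 (signal 24.6). No optimal IDR summit lay within 1000 bp of either start. The nearest pooled summit to the outer TSS, 606 bp upstream, ranked 15375, and the nearest to the inner one, 606 bp downstream, ranked 19159. Replicate 2 alone had a stronger one near the outer TSS, 739 bp upstream, of rank 7691 (signal 11.1), where the nearest summit of replicate 1 was 1196 bp upstream and ranked 20041. All of these lay outside the top 3102 of their lists, whereas the intronic summit lay inside it.

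The linker gene shot (FBgn0013733) is the longest member, on 2R from 13864237 to 13942110 on the minus strand, with 22 isoforms from 4 TSSs. Unlike those of sr, its 2 body summits stood directly on internal starts. The first, in the peak from 13925317 to 13925726, ranked 1644 (signal 88.3) and lay 19 bp upstream of the TSS that shot-RA and 4 more isoforms use. The second, in the peak from 13897467 to 13897876, ranked 2353 (signal 70.3) and lay 29 bp downstream of the TSS of shot-RAB. In isoforms that begin further upstream the first is intronic in 8 and the second in 21.

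The replicates differed at both shot starts. The first summit ranked 1447 in replicate 1 (signal 69.0) and 6393 in replicate 2 (signal 12.0). The second ranked 1922 in replicate 1 (signal 58.4) and 8453 in replicate 2 (signal 10.7). Both were thus in the top 3102 of replicate 1 and outside it in replicate 2, while the summit itself was found in each. The outermost TSS, used by 8 isoforms, had a pooled summit of rank 3546 at 138 bp upstream, which ranked 2608 in replicate 1 and had no replicate 2 summit within 100 bp. At the remaining TSS, also of 8 isoforms, the nearest pooled summit was 198 bp downstream and ranked 14152. The third optimal IDR summit of the shot window, rank 2533, lay past the 3′ end of shot by 5492 bp, and 56 bp upstream of tum, a gene needed in cytokinesis.

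The ligand gene vn (FBgn0003984) lies on 3L from 5813338 to 5845664 on the minus strand, and its 2 isoforms share a TSS. Its optimal IDR peak, from 5824019 to 5824428, ranked 1351 (signal 99.3). The summit lay in intron 1 of both isoforms, 21440 bp downstream of the TSS and 5938 bp from the nearest exon edge. The nearest TSS was not that of vn but that of mad2, a spindle checkpoint gene, at 11131 bp. In replicate 1 it ranked 958 (signal 87.0), and in replicate 2 it ranked 8949 (signal 10.5). Replicate 2 had its own strongest vn summit elsewhere in intron 1, at 5834459, with rank 2086 (signal 22.1) and no replicate 1 summit within 100 bp. Both replicates therefore placed a strong summit in the first intron of vn, at different positions.

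Of all members, vn also stood highest against genes of its own length in the number of relaxed body summits. It held 20 pooled summits, against a median of 6 over 375 genes of like length, of which 4.53% held at least as many. The count was 20 in replicate 1 and 15 in replicate 2, where 5.33% and 4.0% of these genes held at least as many. Apart from that of rank 1351, the pooled summits in vn ranked between 4724 and 29837, outside the optimal set, and the one nearest to the vn TSS, 253 bp downstream, ranked 29837 of 30000.

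**Figure D2:**
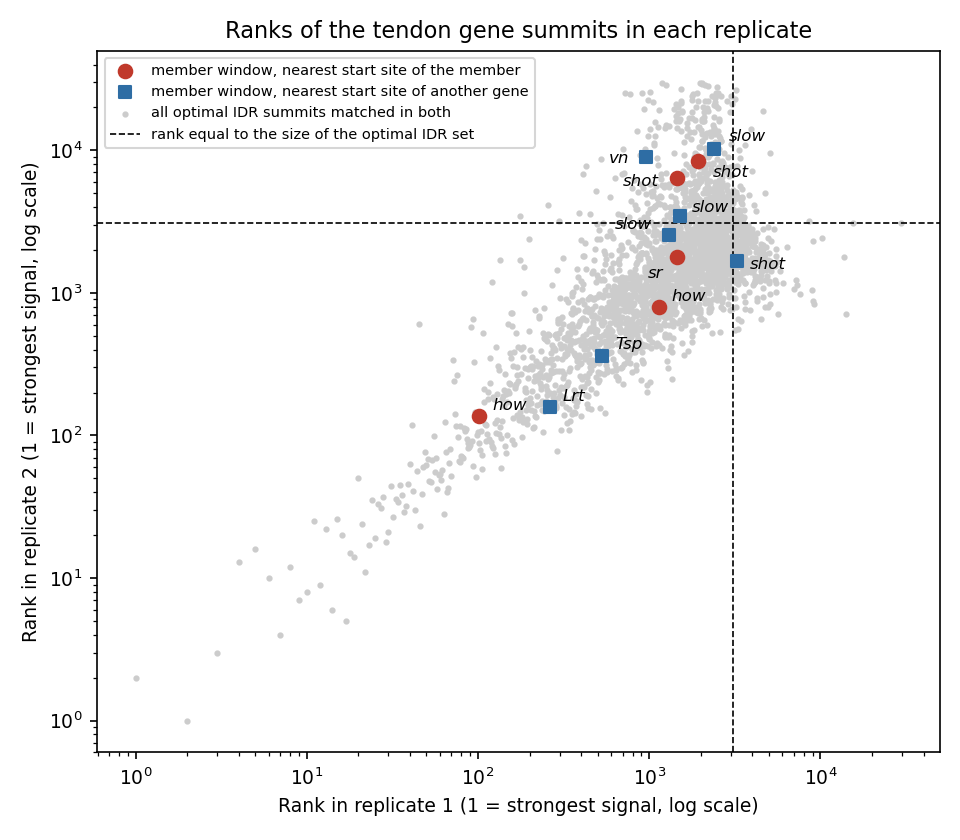
Each point is an optimal IDR summit with a summit within 100 bp in both replicates, with its rank in replicate 1 on the horizontal and in replicate 2 on the vertical log axis, and dashed lines mark rank 3102. Red circles and blue squares are the 12 summits of the member windows, all matched in both, and 6 of them lie inside both dashed lines, at how, sr, Tsp, Lrt and slow.

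Over the 12 summits, each had a counterpart within 100 bp in both replicate lists, as did 91.0% of all 3102. In replicate 1, 11 of the 12 were among the top 3102, and in replicate 2, 7 were. The 6 that were in the top 3102 of both make 50% of the members' summits, against 65.2% of all optimal IDR summits. Of the 5 summits nearest to a member's TSS, 3 met this, both of how and the one of sr. The shot pair and the vn summit were the body summits that replicate 2 ranked outside its top 3102.

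The 3 genes Tsp, Lrt and slow had optimal IDR summits only in their flanks, each at another gene. For Tsp (FBgn0031850, 2L from 6686791 to 6709086, minus strand) the peak from 6684367 to 6684550 ranked 461 (signal 174), 532 in replicate 1 and 363 in replicate 2. It lay 2295 bp beyond the 3′ end of Tsp and 132 bp upstream of a TSS of Nhe3, a sodium and proton exchanger. For Lrt (FBgn0034540, 2R from 20646360 to 20661070, plus strand) the peak from 20666476 to 20666700 ranked 219 (signal 241), 265 in replicate 1 and 158 in replicate 2. It lay 5545 bp beyond the 3′ end, inside Fem-1 and 691 bp downstream of its TSS. These are strong peaks in both replicates, and the TSS nearest to each is not that of the tendon gene.

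For slow (FBgn0035539, 3L from 4384442 to 4403181, plus strand) there were 3 flank summits. The one of rank 1395 stood 200 bp beyond the 3′ end and 106 bp upstream of the TSS of Syx17, which encodes an autophagosome syntaxin. The one of rank 1744 stood 57 bp upstream of a TSS of TP53INP, and the one of rank 2767, 5346 bp upstream of slow, lay in DopEcR, 503 bp from a TSS of that receptor gene. In replicate 2 the last ranked 10154. The best summit inside slow ranked 11416 in the pooled list and that inside Lrt 10851, far below the optimal set.

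Tsp differed from slow and Lrt in that its body held summits just below the optimal set. The pooled summit at 6698558, intronic in 5 of 7 isoforms, ranked 3475 (signal 53.8), 5905 in replicate 1 and 2158 in replicate 2. Another at 6700947, intronic in the same number of isoforms, ranked 4488 in the pooled list and 2835 in replicate 1, with no replicate 2 summit within 100 bp. Each replicate alone thus placed Tsp intronic summits in its top 3102, at different positions. The Tsp body held 7 relaxed summits in replicate 1 and 10 in replicate 2, against medians of 5 and 5 for 518 genes of like length.

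The other 3 members, mspo, kon and Tig, had no optimal IDR summit within 10 kb. The matrix gene mspo (FBgn0020269, 2R from 14671396 to 14713622, minus strand) is long at 42.2 kb, yet its best body summit ranked 13055 in the pooled list, 19537 in replicate 1 and 14871 in replicate 2. The nearest optimal IDR summit was 38786 bp away. Of 342 genes of like length 35.1% had one in the body. Tig (FBgn0011722, 2L from 6415179 to 6423310, minus strand) had a best body rank of 22073 in the pooled list, 29142 in replicate 1 and 6139 in replicate 2, and the nearest optimal IDR summit was 32739 bp away. Neither gene thus had a strong summit in any list, and the Tig value of replicate 1 lay at the floor of its list.

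The muscle tip gene kon (FBgn0032683, 2L from 18487747 to 18503978, minus strand) came closest to a call among these 3. Upstream of the TSS of kon-RB and kon-RC it had a pooled summit at 1739 bp of rank 3119 (signal 58.2), just outside the optimal set, whose weakest peak has a signal of 58.5. That summit ranked 4747 in replicate 1 and 2508 in replicate 2. A neighbour at 1151 bp upstream ranked 3624 in the pooled list, 3429 in replicate 1 and 2199 in replicate 2. An optimal IDR summit of rank 2058 lay 10074 bp beyond the 3′ end, just past the window. Inside kon the best pooled summit ranked 19651.

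**Figure D3:**
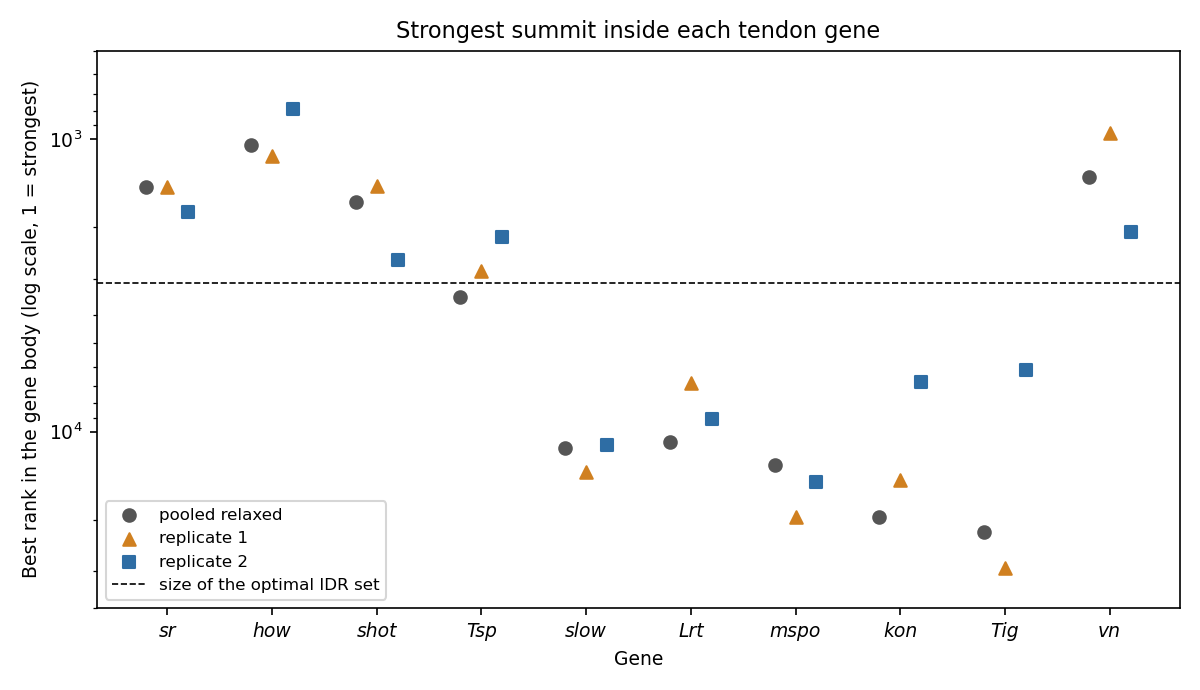
For each gene the point gives the best rank of a summit inside the gene body, on an inverted log axis, in the pooled relaxed list, in replicate 1 and in replicate 2, and the dashed line marks rank 3102. All 3 lists place sr, how, shot and vn above the line, Tsp is above it in each replicate and below it when pooled (rank 3475), and slow, Lrt, mspo, kon and Tig are below it in each list.

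In the single replicates, 5 members had a body summit within the top 3102, sr, how, shot, Tsp and vn in each case. The background was 9.28% of all genes for replicate 1 and 9.24% for replicate 2. As for the optimal set, that background is low for genes as long as the members. No share over genes of like length was taken for these replicate counts. Counted with 10 kb either side, 7 members had one in replicate 1 (all genes 53.9%) and 8 in replicate 2 (all genes 53.8%). Within 1000 bp of a TSS there were 2 members in replicate 1 (all genes 18.7%) and 1 in replicate 2 (all genes 18.1%). The members' bodies held 8 such summits in replicate 1 and 5 in replicate 2. Those of sr and of how at rank 1049 were common to both. In shot, replicate 2 had its best summit at 13940561 (rank 2601), in intron 1 of 8 isoforms and 1549 bp downstream of the outermost TSS, where replicate 1 had none within 100 bp.

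Most body summits were intronic. Of 102 pooled relaxed summits in the members' bodies 86 (84.3%) lay outside every annotated exon, against 57.5% of pooled summits in all gene bodies. Members also have more intron: 73.3% of their length is outside exons, against 62.7% of all gene bodies. In replicate 1 the share was 81.2% for the members and 58.7% for all genes, and in replicate 2 it was 77.5% and 56.9%. Of the 5 optimal IDR summits, 4 (80.0%) were outside exons, against 77.5% of all optimal IDR summits in gene bodies, a difference that is under 1 summit.

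**Figure D4:**
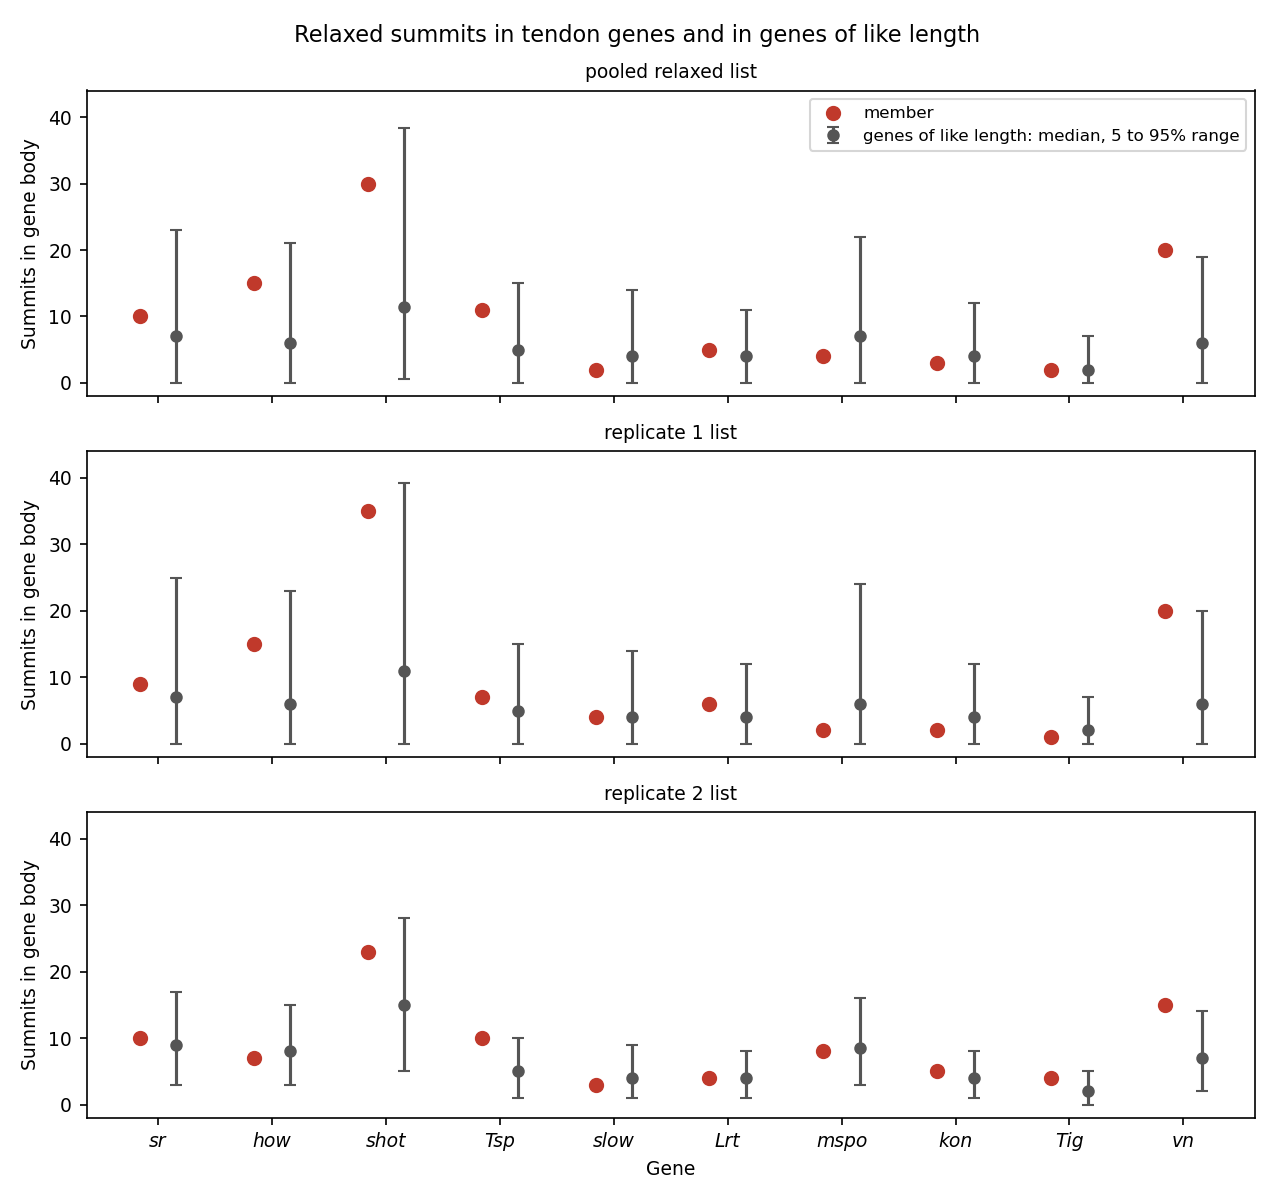
Red points give the relaxed summits in each member's body and grey points with bars the median and the 5 to 95% range of genes of like length, for the pooled list, replicate 1 and replicate 2. The vn point reaches or passes the upper end of its range in each panel, with 20, 20 and 15 summits. Tsp is at the upper end of its range in replicate 2 with 10, and the other points lie inside theirs.

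The number of relaxed summits in a body varied from 2 at slow and Tig to 30 at shot in the pooled list. For shot 13.0% of 154 genes of like length held at least as many in the pooled list, 9.09% in replicate 1 (35 summits) and 20.1% in replicate 2 (23 summits). For sr the body counts were 10, 9 and 10 in the pooled, replicate 1 and replicate 2 lists, near the medians of 7, 7 and 9 of genes of like length. For mspo they were 4, 2 and 8 against medians of 7, 6 and 8.5. Genes of like length with the most optimal IDR summits had more than any member: beside sr they were Raf with 8, tou with 6 and NFAT with 5, beside shot they were ush with 9, sbb with 8 and Hr4 with 7, and beside vn they were CHES-1-like with 10, and simj and tou with 6 each. Beside how, tou had 6, NFAT 5 and 11 genes tied at 4.

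E-boxes were about as common at the 12 summits of the member windows as at all optimal IDR summits. Of the 12, 7 had a TSS of another gene as the nearest, so the share is not one for the members alone. Within 50 bp, 5 of the 12 summits held a CANNTG on either strand (the motif reads the same on both), 41.7% against 38.0% of all 3102. They were those of sr, how (both), the shot start of shot-RA, and Fem-1 beside Lrt. CAGCTG stood at 2 of 12, both at how, against 4.90% of all summits, and CAACTG (or CAGTTG on the other strand) at 2 of 12, in sr and shot, against 4.96%. The weaker how summits that were scanned outside the optimal set were mixed. The window of rank 3514 held CAATTG and CAGCTG, that of rank 6070 held CAGGTG, and those of ranks 3478 and 6048 held no E-box. With this number of windows each class rests on 1 or 2 summits, and a match does not show that tx binds there.

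The letters GCGTGGGCG, a site of the Egr family to which stripe belongs, stood in 0 of the 12 windows on either strand and in 1 of all 3102 (0.0322%). TATCGATA, which the factor DREF binds, was in 0 of 12, against 2.64%. The site of the muscle regulator Mef2 was in 0 of 12, against 5.38%. GAGAG was in 1 of 12, the vn intron, against 10.1%, and CACACA in 1 of 12, at the start of shot-RAB, against 6.48%. AACCGGTT (grainy head) and CAGGTA (Zelda) were in none, against 0.161% and 2.06%. The 12 summits of the member windows had a median GC content of 39.6% (range 26.7 to 55.4%), against 34.7% for all optimal IDR summits. The lowest value was at the how intron and at Nhe3.

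Genes around the tendon program were counted by a summit in the body or within 1000 bp of a TSS, a rule that 4 of 10 members (40%) and 21.4% of all genes met, and 40.5% of genes of like length to the members. The lists were chosen with earlier results on these data known, and the counts have no test. Of 16 genes of the EGFR pathway, through which vein acts, 10 met it (62.5%, against 35.2% for genes of like length). Raf, its kinase, led with rank 47, followed by the ligand spi (rank 126), the secreted inhibitor aos (rank 145) and S, the ligand-processing gene Star (rank 205). Of 16 receptors, adaptors and matrix genes of the attachment 9 met it (56.2%, against 35.1%), led by the adaptors Pax (rank 189), Ilk (rank 376) and Vinc (rank 834) and the integrin mew (rank 841). The best summit ranked within the top 3102 of both replicates for 9 of the 10 EGFR pathway genes and for 7 of the 9 attachment genes. Of all optimal IDR summits 65.2% were so placed, but that share is not limited to the best summit of a gene, so the measures are unlike. Among the genes named from these lists, only Ilk missed the top 3102 in a replicate, with rank 176 in replicate 1 and 3461 in replicate 2. Wider splits were seen at genes not named. An attachment gene ranked 984 in replicate 1 and 22732 in replicate 2, and an EGFR pathway gene ranked 2556 and 16618.

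Genes that induce sr in the epidermis, of the Wingless and Hedgehog pathways, met the rule in 2 of 9 cases (22.2%, against 35.3% for genes of like length), ttv, an enzyme of heparan sulfate synthesis (rank 961), and the receptor ptc (rank 3061). The pathway ligands wg and hh were not among them. Of 11 genes that guide muscles 5 met it (45.5%, against 39.1%), each through the gene body and none within 1000 bp of a TSS. They include sli, the ligand slit made by tendon cells (rank 964), the netrin receptor fra (rank 1746), dnt (rank 2211) and Grip, an intracellular partner of kon (rank 2651). Of 7 cytoskeletal genes 3 met it (42.9%, against 29.5%), the tubulins betaTub56D (rank 810) and alphaTub84B (rank 897) and the myosin light chain sqh (rank 3011). The last list holds tx, sr, da, the common bHLH partner, and the transcription factor genes ken and jumu, for which no link to tendon cells is established here, so its count says nothing of the tendon program. Of these 5 genes 4 met the rule, ken (rank 453), jumu (rank 928), sr, which is also a member, and da (rank 1737).

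Over all 6 lists, 25 of the 33 genes that met the rule had their best summit in the top 3102 of both replicates. Of all optimal IDR summits, best of a gene or not, 65.2% were so placed. The share over the best summits of all genes was not computed, so the count does not set these genes apart. Among the genes named, the splits were wide at several. The ptc summit ranked 2869 in replicate 1 and 8927 in replicate 2. For Grip the ranks were 3969 in replicate 1 and 1509 in replicate 2. The jumu summit had no replicate 1 summit within 100 bp and ranked 919 in replicate 2. The sqh summit ranked 2894 in replicate 1 and had no replicate 2 summit within 100 bp.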

How the data were processed

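Peaks of tx-GFP ChIP-seq from 2 biological replicates of whole embryos were analysed; per the labels' protocols, chromatin was sonicated to 200 to 800 bp. The authors deposited peak lists with a signal value per peak, which was used to rank within a list, and a −log10 q-value, which is capped and was not used. Per the deposited text files, each list derives from alignments and 1 control that both replicates share, and the optimal IDR set from all 3 relaxed lists. The aligner is not given in the sources used here, nor is the peak caller. The depth is unknown, so no interval for counting error is given. The dm3 lists were not used.

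Summits (column 2 plus column 10) were placed on Ensembl release 115 (BDGP6.54) genes, whose coordinates are those of dm6; no peak passed the end of a chromosome arm of the Release 6 genome. TSSs are those of protein-coding transcripts. Replicate summits were matched within 100 bp. Like length means within 25% of the member's length. Genes are named by rule: the members, owners of the nearest TSS, the 3 genes of like length with most summits (ties kept, or counted), and up to 4 genes per pathway list by rank. Motifs were searched 50 bp either side of summits on both strands. The members and lists were chosen with earlier results of these data known, so counts are described and not tested. Python 3.11.15, numpy 2.4.6 and pandas 2.3.3 were used, and counting and motif steps were checked on simulated data. Stricter peaks, single replicates, interval overlap and other distances were tried.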

Additional observations from a re-analysis of the deposited data

How the results depend on the processing

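Of 29 alternatives over 7 results, 20 kept the count within 1.5 times. With only the stronger 50% of optimal IDR peaks, promoter summits were left at 1 member (how), and 3 summits were left in the members' bodies, as fewer peaks enter. With the single replicates in place of the pooled set, members with a promoter summit ran from 1 to 2. The lower value was that of replicate 2 alone, whose top 3102 had no summit within 1000 bp of a shot TSS. Body summits ran from 5 to 8. When the nearest TSS had to be that of the member, 3 members (sr, how and shot) were left of the 7 with a summit in the window. With all 30000 pooled peaks, an alternative chosen after seeing the data, 10 members had a body summit. Requiring the top 3102 of each replicate left 6 of the 12 matched summits. E-boxes were found at 3 of the 12 summits within 25 bp, where 20.1% of all optimal IDR summits held one. The count was 5 within 50 bp (all summits 38.0%) and 7 within 100 bp (all summits 63.8%). Within 50 bp, 3 of the 5 body summits held one, and no share of all body summits was taken beside this. Windows and classes of this size hold few summits, the cells bound are not known, and no sample without the tagged protein was analysed here.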
